A study of Rattus norvegicus with 4 samples.

Results

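Microtubule-associated proteins (MAPs) and stathmins are 2 families of proteins that set how stable the microtubules of a cell are. The 10 genes described here were Map1a, Map1b, Map2, Map4, Map6, Mapt, Dcx, Stmn1, Stmn3 and Stmn4, of 14217 genes named on the array. They were found through probe sets to which the platform annotation gave 1 of these symbols alone. That gave 20 probe sets, and each gene took its value from its brightest one. All 10 genes passed the filter on dim probe sets, a mean intensity over the 4 arrays above 62.75, as did 9489 genes in all and 18 of the 20 member probe sets.

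The RNA came from the CA3 area of the hippocampus of Sprague-Dawley rats, taken 24 h after an injection into the hippocampus. One group received kainic acid with the peptide NAP (KA+NAP), one received kainic acid alone (KA), one NAP alone, and one phosphate-buffered saline (PBS), the vehicle. Kainic acid is an agonist of kainate-type glutamate receptors and a standard excitotoxin, and NAP is a peptide taken from the protein ADNP, activity-dependent neuroprotective protein. Each group had 1 array, and the labels do not say whether its RNA came from 1 rat or a pool. The labels state neither the age nor the sex of the rats.

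Structural MAPs bind along the microtubule wall and slow its disassembly. Tau, the product of Mapt, is mostly axonal in mature neurons and MAP2 mostly somatodendritic, whereas MAP4 is found widely outside neurons. Stathmins work the other way: they hold free tubulin dimers and favour disassembly until they are phosphorylated. NAP has been described as acting on microtubules and on the binding of tau to them.

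With 1 array per group no value has a replicate error, and no test between groups is given. Each comparison is a difference of 2 arrays, and a fit over the 4 arrays that takes the difference between the KA effects as its error was not run. Differences are of log2(intensity + 10), which understates those of dim probe sets, and a size of 1.5-fold was used as a fixed mark. The median intensity of all probe sets was between 58 and 65 on the 4 arrays. All 6 CA3 pyramidal markers listed (Grik4, Bok, Coch, Cpne4, Amigo2 and Neurod6) passed the filter, as did all 4 CA1 markers, so genes of both hippocampal fields were measured. As a reading of RNA quality, the control probe sets at the 3′ end were 7.92 to 15.5 times as bright as those at the 5′ end for beta-actin and 1.31 to 1.56 times for GAPDH. Haemoglobin beta (Hbb) differed widely, with 1549 on the KA+NAP array, 186 on the KA array, 1430 on the NAP array and 5 on the PBS array, and its part in the results below was not tested.

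The members separated into 5 genes that were low on both KA-injected arrays and 5 that were not. Map1b, Mapt, Dcx, Stmn1 and Stmn3 had lower intensities on both the KA+NAP and the KA array than on both the NAP and the PBS array. Map1a, Map2, Map4, Map6 and Stmn4 overlapped between the pairs of arrays, and no member was higher on both KA-injected arrays. Among all 9489 genes, 28.7% were lower on both KA-injected arrays and 32.3% were higher on both. No member reached 1.5-fold in either direction in any of the 5 comparisons.

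**Figure D1:**
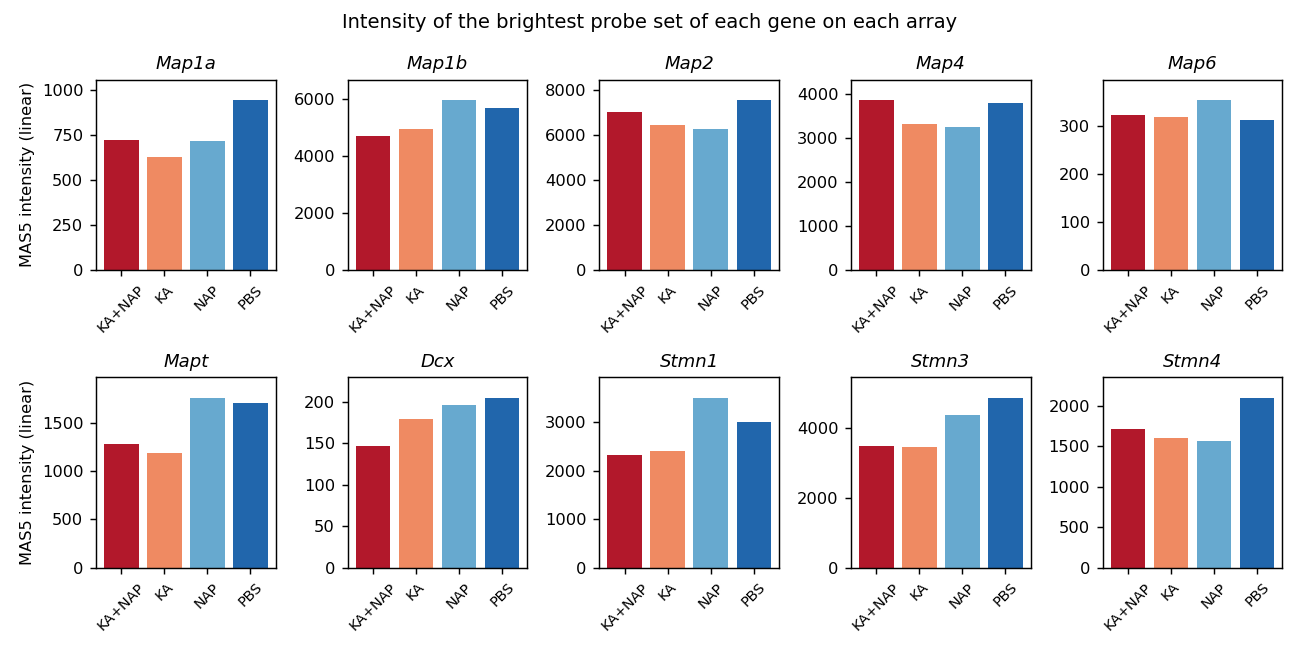
MAS5 intensity (linear, vertical axis from 0) of the brightest probe set of each of the 10 genes on the KA+NAP, KA, NAP and PBS arrays, 1 bar per array, without replicate error. Map1b, Mapt, Dcx, Stmn1 and Stmn3 have both left bars below both right bars; for Map1a and Stmn4 the PBS bar stands above the other 3. Heights are not comparable between panels, since each probe set responds differently.

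By brightest probe set, tau had the lowest average KA effect of the members. This effect is the mean of the log2 differences KA minus PBS and KA+NAP minus NAP. With probe sets averaged, Stmn1 was lowest at -0.45, and Mapt was at -0.41. Mapt had an intensity of 1285 on the KA+NAP array, 1188 on the KA array, 1762 on the NAP array and 1710 on the PBS array. The 2 KA-injected arrays were both below the other 2. The log2 difference was -0.52 in KA minus PBS and -0.45 in KA+NAP minus NAP, and the average of -0.49 stood at the 10.5th percentile of all genes. Both other Mapt probe sets were also below 0 in both KA differences, at -0.70 and -0.36 for one and at -0.07 and -0.33 for the other. The second of these had 1063 on the KA+NAP array, 956 on the KA array, 1338 on the NAP array and 1006 on the PBS array. There the KA+NAP array was above the PBS array, so neither the size nor the order of arrays held in all 3 Mapt probe sets.

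Stmn1 and Stmn3 followed tau. Stathmin 1 is the cytosolic founder of its family and is also abundant in dividing cells, and stathmin 3 is a neuronal, membrane-anchored relative. Stmn1 had 2330 on the KA+NAP array, 2412 on the KA array, 3498 on the NAP array and 2996 on the PBS array. Its largest difference was KA+NAP minus NAP at -0.58, which is 1.499-fold lower and just short of the 1.5-fold mark, and KA minus PBS was -0.31. The NAP array carried the highest Stmn1 intensity of the 4, 0.22 above PBS on the log2 scale.

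Stmn3 had 3501 on the KA+NAP array, 3475 on the KA array, 4379 on the NAP array and 4873 on the PBS array. The 2 KA-injected arrays were nearly equal, 0.01 apart on the log2 scale. Stmn3 differed by -0.49 in KA minus PBS and by -0.32 in KA+NAP minus NAP. Stmn1 and Stmn3 each had a single probe set, so neither had a second reading on these arrays.

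Stmn4, another membrane-anchored neuronal stathmin, had a different order of arrays. Its intensity was 1716 on the KA+NAP array, 1605 on the KA array, 1560 on the NAP array and 2100 on the PBS array. Only the PBS array stood apart, and the other 3 lay within a narrow range. Stmn4 therefore differed by -0.39 in KA minus PBS and by -0.43 in NAP minus PBS, but by 0.14 in KA+NAP minus NAP. Set against NAP and not PBS, the KA array differed by 0.04 in Stmn4.

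Map1b, an early-expressed MAP of growing axons and dendrites, had 4696 on the KA+NAP array, 4967 on the KA array, 5967 on the NAP array and 5680 on the PBS array. The differences were small, -0.34 in KA+NAP minus NAP and -0.19 in KA minus PBS. Its 3 probe sets disagreed. One more had lower values on both KA-injected arrays, at 512 with KA+NAP, 514 with KA, 826 with NAP and 604 with PBS. The third was dim and had its lowest value with PBS, at 236 with KA+NAP, 231 with KA, 213 with NAP and 109 with PBS. In that probe set KA minus PBS was 1.02, and NAP minus PBS was 0.91, so its PBS value and not a KA value stood apart. Averaged over its 3 probe sets, Map1b was no longer lower on both KA-injected arrays, and KA minus PBS was 0.20.

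Doublecortin (Dcx) marks newborn and migrating neurons, which in the adult hippocampus lie in the dentate gyrus. Dcx had 147 on the KA+NAP array, 180 on the KA array, 196 on the NAP array and 205 on the PBS array. The array order ran down from PBS to KA+NAP, on a dim probe set whose mean intensity of 182 was below the 75th percentile of probe sets. Dcx differed by -0.39 in KA+NAP minus NAP and by -0.18 in KA minus PBS, and a second probe set, at 1 to 3 on every array, did not pass the filter. Beside it, 3 of 6 immature neuron markers passed the filter, and their list, whose Eomes value was listed at 0 on the KA+NAP array, summed to 1172 with KA+NAP, 1113 with KA, 1047 with NAP and 1029 with PBS. Of the 3 dentate granule markers on the array 2 passed the filter, and the list summed to 1381 with KA+NAP, 1413 with KA, 2472 with NAP and 2197 with PBS, so both KA-injected arrays were below both others, as for Dcx. How far dentate tissue in the samples contributed to the Dcx values was not tested.

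The RefSeq promoter table (GRCr8) held windows for 6 of the 10 members. The 250 bases before the annotated start are shown for Map1b and Stmn3, the members low on both KA-injected arrays whose start in that table is the outer edge of the gene. They are shown as sequence context, and nothing in these data ties them to the intensities. Map1b lies at chr2:32644472-32644721 and Stmn3 at chr3:188802495-188802744, both on the minus strand. Capitals mark the motifs found.
Map1b: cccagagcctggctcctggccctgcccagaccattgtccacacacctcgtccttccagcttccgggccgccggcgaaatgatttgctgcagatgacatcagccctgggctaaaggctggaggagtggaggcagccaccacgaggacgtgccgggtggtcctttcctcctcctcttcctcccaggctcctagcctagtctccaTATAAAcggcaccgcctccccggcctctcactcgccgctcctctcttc
Stmn3: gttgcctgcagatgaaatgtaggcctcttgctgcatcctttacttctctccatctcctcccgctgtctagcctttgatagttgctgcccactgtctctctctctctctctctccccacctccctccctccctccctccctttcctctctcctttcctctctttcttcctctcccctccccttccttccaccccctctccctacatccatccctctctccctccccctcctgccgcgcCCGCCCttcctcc

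4 motifs were searched on both strands, none overlapping another in these windows: the TATA box TATAAA, the GC box GGGCGG, the AP-1 site TGANTCA with N for any base, and the cAMP response element TGACGTCA. Map1b held TATAAA, which begins 48 bases before the start, as did 12.9% of the 33469 promoters in the table. Stmn3 held GGGCGG on the opposite strand, which begins 13 bases before the start, as did 30.5% of promoters. Neither window held the AP-1 or cAMP response letters, which 6.34% and 1.59% of promoters hold. The printed strand of the Stmn3 window was 84% pyrimidine, against a median of 49.6% over all promoters, and 9 of the 33469 were at least as rich. A match of letters is a description of these windows and not a site of binding.

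Of the members that overlapped between arrays, Map1a had the lowest single difference. MAP1A is a MAP of mature dendrites. It had 721 on the KA+NAP array, 629 on the KA array, 715 on the NAP array and 942 on the PBS array. KA minus PBS was -0.58, or 1.49-fold lower (-0.64, past 1.5-fold, with median centring), whereas KA+NAP minus NAP was 0.01, or -0.05 with median centring. As for Stmn4, the PBS array was the highest of the 4, and NAP minus PBS was -0.39, at the 5.57th percentile of all genes.

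Map2 had 7018 on the KA+NAP array, 6447 on the KA array, 6275 on the NAP array and 7548 on the PBS array. Its highest and lowest arrays were both without KA, and its log2 range over the 4 arrays was 0.27. Map2 differed by -0.23 in KA minus PBS and by 0.16 in KA+NAP minus NAP. A second, dimmer Map2 probe set had 350 with KA+NAP, 172 with KA, 229 with NAP and 246 with PBS, and its KA+NAP minus KA of 0.98 was far above the 0.12 of the brightest one. That was the 1 member probe set past 1.5-fold in KA+NAP minus KA.

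Map4, in most tissues the main MAP outside neurons, had the highest average KA effect of the members by brightest probe set, at 0.03. That was close to the median of all genes at 0.02, and it was -0.03 with median centring. With probe sets averaged, Map6 was highest at 0.29, and Map4 was at 0.16. The Map4 intensity was 3860 on the KA+NAP array, 3314 on the KA array, 3243 on the NAP array and 3785 on the PBS array. The KA+NAP and PBS arrays were nearly level. In a second probe set KA+NAP stood higher, at 1541 against 1156 with KA, 1032 with NAP and 1153 with PBS. KA+NAP minus KA was 0.22 in the brightest probe set and 0.41 in the second.

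Map6 encodes STOP, the stable tubule-only polypeptide, which makes neuronal microtubules resist cold. It had 324 on the KA+NAP array, 319 on the KA array, 355 on the NAP array and 313 on the PBS array, the narrowest log2 range of the members at 0.18. A second probe set gave 240 with KA+NAP, 207 with KA, 206 with NAP and 208 with PBS. The third, close to the filter, gave 89 with KA+NAP, 104 with KA, 40 with NAP and 64 with PBS, which is 0.62 in KA minus PBS and 0.99 in KA+NAP minus NAP. The 3 probe sets thus ranged from -0.05 to 0.80 in average KA effect.

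**Figure D2:**
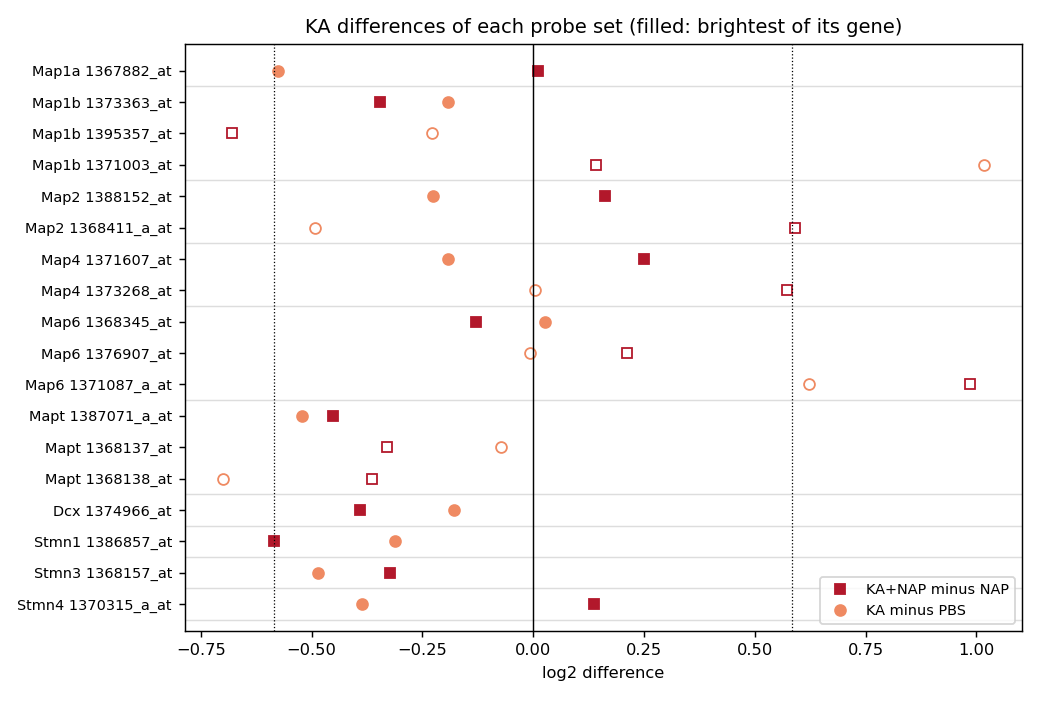
Log2 differences KA+NAP minus NAP (squares) and KA minus PBS (circles) of the 18 member probe sets past the filter, filled for the brightest probe set of its gene. Dotted lines mark 1.5-fold. All 3 Mapt probe sets lie left of 0 in both differences, while the dimmest probe sets of Map1b and Map6 lie right of 0.

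Kainic acid alone was set against vehicle to describe the response to the toxin. In KA minus PBS, 9 of 10 members were below 0, all but Map6, where 47.2% of all genes were below 0. The members' median was -0.27, against 0.02 for all genes. None of the 10 was at least 1.5-fold lower or higher, where 9.56% of all genes were lower and 12.4% higher by that size. The lowest were Map1a at -0.58, Mapt at -0.52 and Stmn3 at -0.49, and Map6 was the highest at 0.03, a value that turned to -0.01 with quantile normalization and -0.03 with median centring.

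In KA+NAP minus NAP, which uses the other pair of arrays, 6 of 10 members were below 0 (Map1b, Map6, Mapt, Dcx, Stmn1 and Stmn3), where 47.3% of all genes were below 0. The median was -0.23, against 0.03 for all genes. None reached 1.5-fold, a size at which 9.38% of genes were lower and 13.8% higher. Stmn1 was lowest at -0.58 and Map4 highest at 0.25. The 2 KA differences share no array. They had the same sign in 5 members and in 70.9% of all genes. The excess of KA+NAP minus NAP over KA minus PBS reached 1.5-fold higher in 1 of 10 members, Map1a at 0.59, and in 8.47% of all genes.

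**Figure D3:**
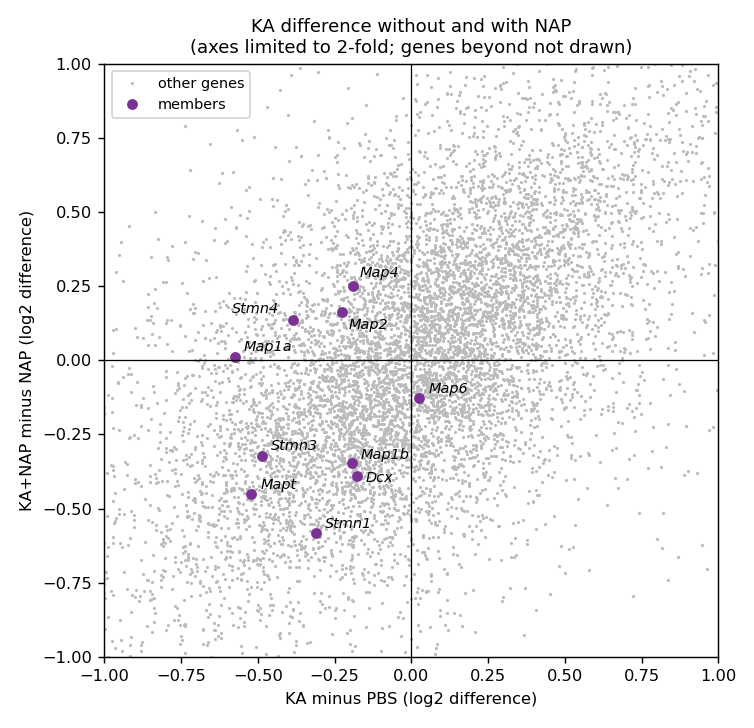
Log2 difference KA minus PBS (horizontal) against KA+NAP minus NAP (vertical) for the 10 members (purple) and the other genes past the filter (grey), 1 point per gene, axes limited to 2-fold. Mapt, Stmn1, Stmn3, Map1b and Dcx lie below 0 on both axes, and Map1a, Map2, Map4 and Stmn4 lie left of 0 horizontally and at or above 0 vertically.

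KA+NAP was set against KA to describe the peptide in injured tissue. Differences were small in the members, with 3 of 10 below 0 (Map1b, Dcx and Stmn1), where 45.4% of all genes were below 0. The members' median was 0.06 and that of all genes 0.03. Map4 was highest at 0.22 and Map1a next at 0.19, and Dcx was lowest at -0.28. None of the 10 reached 1.5-fold, where 6.53% of genes were higher and 2.87% lower. The 3 stathmins lay between -0.05 and 0.10 and Mapt was at 0.11. For Mapt, Stmn1 and Stmn3 the KA+NAP value was nearer to the KA value than to either array without KA.

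NAP alone was set against PBS to describe the peptide without injury. Of the 10 members, 6 were below 0 (Map1a, Map2, Map4, Dcx, Stmn3 and Stmn4), where 45.2% of all genes were. Stmn4 at -0.43 and Map1a at -0.39 were the lowest, and Stmn1 was the highest at 0.22. None reached 1.5-fold, a size at which 1.69% of genes were lower and 3.96% higher. The members' median was -0.11 and that of all genes 0.02. KA minus PBS and NAP minus PBS share the PBS array, so a high PBS reading lowers both.

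KA+NAP minus PBS, which sets the treated injury against the vehicle, was below 0 in 8 of 10 members, all but Map4 and Map6 (themselves below 0 with median centring), and 47.2% of all genes were below 0. The median was -0.33, against 0.03 for all genes. Stmn3 was lowest at -0.48, followed by Dcx at -0.45 and Mapt at -0.41. None reached 1.5-fold, where 9.39% of genes were lower and 16% higher.

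**Figure D4:**
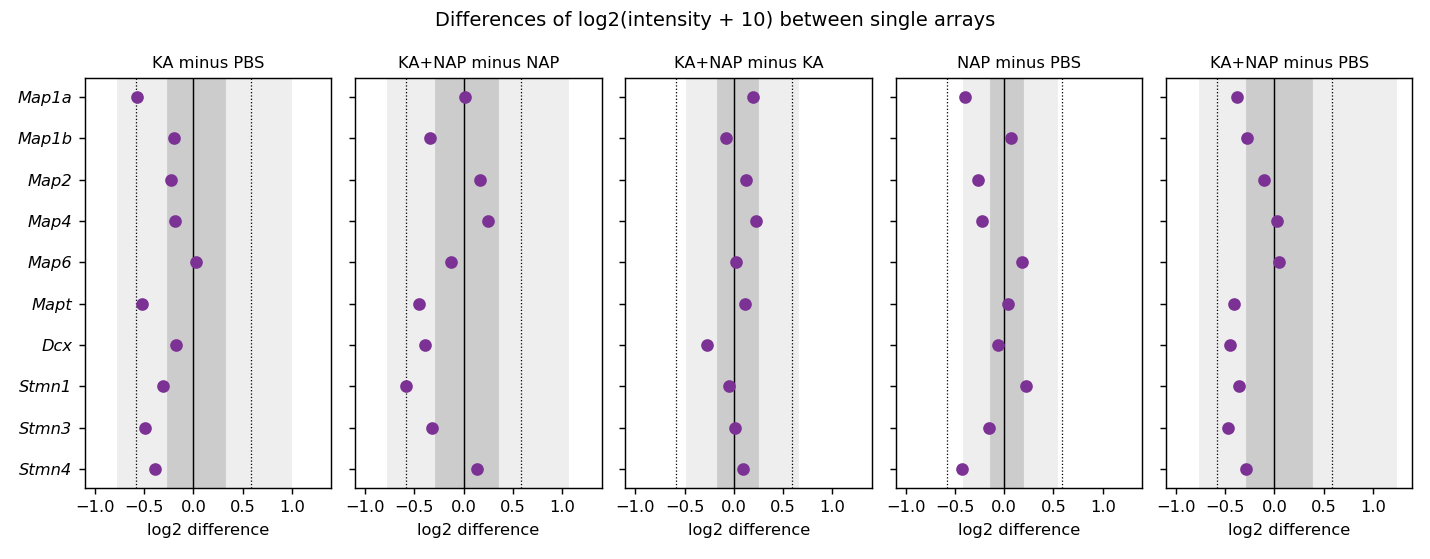
Log2 differences of the 10 members (points, brightest probe set) in 5 comparisons of single arrays. The dark band spans the 25th to 75th percentile of all genes past the filter and the light band the 5th to 95th percentile; dotted lines mark 1.5-fold. No point lies past a dotted line, and in KA minus PBS 9 of 10 points lie left of 0.

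Neuronal markers moved beside the members that were low on the KA-injected arrays. All 8 pan-neuronal markers passed the filter, and their summed intensity was 20580 on the KA+NAP array, 21450 on the KA array, 27130 on the NAP array and 29146 on the PBS array. Their median was -0.43 in KA minus PBS, with 7 of 8 below 0, and -0.45 in KA+NAP minus NAP, with 8 of 8 below 0. Among all genes 47.2% and 47.3% were below 0 in these 2 differences, with medians of 0.02 and 0.03. The 6 CA3 markers summed to 3431 with KA+NAP, 4090 with KA, 5266 with NAP and 6420 with PBS, and all 6 were below 0 in both KA differences. Mapt at -0.52 and -0.45 lay close to the pan-neuronal medians. In these tissue samples fewer neurons and less RNA per neuron cannot be told apart, and the part of neuron content in the members' values was not tested.

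Markers of other cells took other orders. The 8 proliferation markers, read beside Stmn1, summed to 4400 with KA+NAP, 3198 with KA, 2024 with NAP and 1334 with PBS. In KA minus PBS and KA+NAP minus NAP, 0 of the 8 were below 0, where 47.2% and 47.3% of all genes were. Stmn1 was below 0 in both. In NAP minus PBS 0 of the 8 were below 0, where 45.2% of all genes were, and Stmn1 was at 0.22. The part of dividing cells in the Stmn1 values was not tested. The 4 CA1 markers summed to 1964 with KA+NAP, 552 with KA, 1250 with NAP and 2337 with PBS. The CA1 sum was highest on the PBS array, as were Map1a, Map2, Stmn3, Stmn4 and Dcx and the pan-neuronal and CA3 sums. It was lowest on the KA array, as were Map1a and Stmn3, whereas Map2 and Stmn4 were lowest on the NAP array. Among the CA1 markers Pou3f1 was highest on the KA+NAP array, at 450 against 376 on the PBS array. Whether CA1 content bears on any member was not tested. Astrocyte markers summed to between 29830 and 33482, oligodendrocyte markers to between 12380 and 14652 and microglia markers to between 1013 and 2099 over the 4 arrays. These sums held genes of opposite order: Vim had 5255 with KA+NAP, 3688 with KA, 1588 with NAP and 851 with PBS, while Aldoc had 2668 with KA+NAP, 2511 with KA, 4955 with NAP and 5266 with PBS. Among the microglia markers Cd68 had 244 with KA+NAP, 74 with KA, 69 with NAP and 24 with PBS, while P2ry12 had 368 with KA+NAP, 232 with KA, 773 with NAP and 1071 with PBS. These 4 genes were named after their values were seen.

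Other genes that act on microtubules were read from 7 lists, of which 72 genes passed the filter. In KA minus PBS 6 of the 72 were higher by 1.5-fold or more and 5 lower, with a median of 0.05, where 12.4% of all genes were higher and 9.56% lower. In KA+NAP minus NAP 3 were higher and 6 lower, with a median of -0.14, where 13.8% of all genes were higher and 9.38% lower. On the average KA effect 5 were higher and 5 lower by that size, where 11.4% of all genes were higher and 7.32% lower. Of the 13 other MAPs and doublecortin family genes past the filter, the median average KA effect was -0.23, next to -0.28 for the members and 0.02 for all genes.

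Stmn2, the neuronal stathmin of growing axons also called SCG10, had the lowest average KA effect of the stathmins at -0.61. Its intensity was 4026 on the KA+NAP array, 4037 on the KA array, 6462 on the NAP array and 5909 on the PBS array. The order of arrays matched that of Stmn1, with both KA-injected arrays low and NAP highest. Mtus2 was at -0.64, from 144 with KA+NAP, 146 with KA, 248 with NAP and 216 with PBS. Jpt1, named here after its values were seen, was the third gene of this list at 1.5-fold lower. It was at -0.59, just past that mark. That made 3 of 13 genes, where 7.32% of all genes averaged at least 1.5-fold lower. At the other end Dclk1, a doublecortin-like kinase, was higher, with 3280 on the KA+NAP array, 5075 on the KA array, 2315 on the NAP array and 2504 on the PBS array. Dclk1 was 1.02 in KA minus PBS and 0.50 in KA+NAP minus NAP, in contrast to its relative Dcx, and Map7d1 averaged 0.19.

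The 5 collapsin response mediators had a median average KA effect of 0.09. Dpysl3 was highest at 1.21, with 139 on the KA+NAP array, 194 on the KA array, 91 on the NAP array and 46 on the PBS array. Its PBS value lay below the 62.75 of the filter, so the size depends on the pseudocount. Dpysl5 averaged 0.17, Crmp1 0.08 and Dpysl2, at intensities of 5474 to 6766, -0.19. The averages of Dpysl5 and Crmp1 joined KA differences of opposite sign. Dpysl5 was -0.28 in KA minus PBS and 0.62 in KA+NAP minus NAP, and Crmp1 was 0.33 and -0.16.

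Kinases and phosphatases that act on MAPs had a median average KA effect of 0.06 over 12 genes, with none at 1.5-fold. Fyn, a tyrosine kinase that binds tau, averaged 0.42 and the microtubule affinity-regulating kinase gene Mark3 0.36, while Mark2 averaged -0.39 and the stress kinase Mapk8 -0.42. Genes for severing and depolymerising proteins had a median of 0.16 over 4 genes. Katnal1 was highest at 0.78, with 79 on the KA+NAP array, 86 on the KA array, 71 on the NAP array and 26 on the PBS array. PBS alone stood apart, so KA minus PBS was 1.42 and KA+NAP minus NAP 0.14. That PBS value lay below the 62.75 of the filter, so the size depends on the pseudocount. Katna1 averaged 0.27, Kif2a 0.05 and spastin (Spast) 0.02. In KA minus PBS Kif2a was 0.30 and Spast 0.31, but in KA+NAP minus NAP they were -0.21 and -0.27.

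Of 16 genes for proteins of the plus and minus ends, 2 averaged at least 1.5-fold higher, where 11.4% of all genes did, a like share. Tacc3, a spindle protein, averaged 0.94, with 140 on the KA+NAP array, 67 on the KA array, 57 on the NAP array and 37 on the PBS array. Both its values without KA lay below the 62.75 of the filter, so it passed through the KA-injected arrays and its size depends on the pseudocount. Pafah1b1, the lissencephaly protein that regulates dynein, averaged 0.72, with 1094 on the KA+NAP array, 1080 on the KA array, 651 on the NAP array and 665 on the PBS array. Its arrays fell into the same pairs as those of Mapt, in the opposite direction. Clasp2, which stabilises plus ends, averaged -0.56 and Camsap3, a minus-end protein, -0.35. The Camsap3 average joined 0.16 in KA minus PBS and -0.86 in KA+NAP minus NAP.

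Among 8 tubulin-modifying enzymes Ttll7, which adds glutamate chains to tubulin, was lowest at -0.60, with 1586 on the KA+NAP array, 1702 on the KA array, 2336 on the NAP array and 2654 on the PBS array. Ttll1 averaged -0.11, the tubulin acetylase gene Atat1 0.05 and Vash1 0.09. Each joined KA differences of opposite sign. In KA minus PBS they were 0.01, 0.37 and -0.10, and in KA+NAP minus NAP -0.24, -0.28 and 0.28. Among 14 motor genes the dynein intermediate chain gene Dync1i1 was lowest at -0.82, with 1124 on the KA+NAP array, 1312 on the KA array, 2094 on the NAP array and 2199 on the PBS array. Klc2 averaged -0.57, the synaptic vesicle precursor motor Kif1a 0.43 and Dync1i2 0.18. The 2 intermediate chain genes, Dync1i1 and Dync1i2, thus lay on opposite sides of 0.

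**Figure D5:**
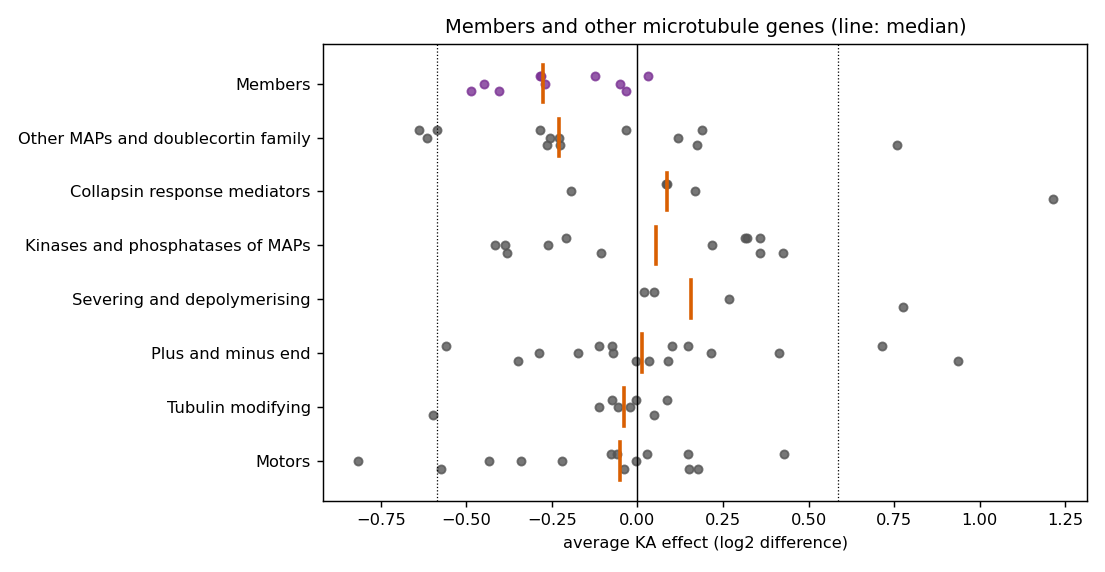
Average KA effect (log2, mean of KA minus PBS and KA+NAP minus NAP) of the 10 members (purple) and of the 72 other microtubule genes past the filter by list (grey), 1 point per gene, with the median as a line and dotted lines at 1.5-fold. Members and other MAPs have medians of -0.28 and -0.23; Dpysl3 at 1.21 is the rightmost point.

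The genes most like the members were sought by distance over the 3 log2 differences from PBS (KA, KA+NAP and NAP), all of which share the PBS array. By brightest probe set, Mapt was the member with the lowest average KA effect. Its 4 nearest genes were Hectd4, Chchd10, Rtn1 and Mif, at distances of 0.036 to 0.054. For Map4, the member with the highest, they were Fbxl12, Tnrc18, Ctso and Abhd17a, at 0.038 to 0.042. With 4 arrays such likeness is common: 33 genes lay within 0.1 of Mapt and 49 within 0.1 of Map4.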

How the data were processed

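RNA of 4 samples was measured on 1 Affymetrix array each. Per the labels' protocols, RNA was extracted from all samples at once with a column kit, and 500 ng of total RNA was amplified in a 2-cycle protocol to biotin-labelled cRNA, which weights the signal toward 3′ sequence. The deposited intensity values are MAS5 signals, per the submitters' processing notes. Its version and background settings are not given in the sources used, and detection calls were not used. The intensities were whole numbers, and their mean was 250.1 on each of the arrays once 2% of values were trimmed from either end: the deposited values had been scaled to one level. Neither scan batch nor signal over background was examined, and the number of arrays limits the precision.

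Gene names came from the platform annotation, updated by Entrez identifier through the GRCr8 gene table. No array probe sequence was used, so where a probe set lies in its transcript was not examined. A gene took its brightest probe set over the 4 arrays. Intensities were analysed as log2(intensity + 10), and genes entered above the median mean intensity of probe sets, 62.75. The named genes were the 10 members, the 2 highest and 2 lowest average KA effects of each of 7 lists, and the 4 genes nearest to the members with the highest and lowest average KA effect. The members, lists and sizes were chosen with earlier results of these data known. A run on simulated arrays, with known changes larger than 2-fold and little noise, was counted at 2-fold. It checked the calculation and not the 1.5-fold counts given here. Python 3.11.15, numpy 2.4.6 and pandas 2.3.3 were used. Alternatives varied the pseudocount, filter, probe set rule and scaling.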

Additional observations from a re-analysis of the deposited data

Results flagged for a closer look

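For 5 members the KA difference pointed one way without NAP and the other way with it. Each difference rested on 2 single arrays, so this was not tested. Among all genes 70.9% had the same sign in both. For 2 of the 5 the sign rested on a value near 0, Map1a at 0.01 in KA+NAP minus NAP and Map6 at 0.03 in KA minus PBS. With median centring these values were -0.05 and -0.03, and both genes were then below 0 in both KA differences. The excess of KA+NAP minus NAP over KA minus PBS was 0.59 for Map1a, 0.52 for Stmn4, 0.44 for Map4, 0.39 for Map2 and -0.15 for Map6. At least 1.5-fold in that quantity was reached by Map1a alone, against 8.47% of all genes higher by that size. For Map1a, Map2, Map4 and Stmn4, KA+NAP exceeded KA by 0.10 to 0.22 on the log2 scale, and NAP minus PBS was -0.43 to -0.22. The second probe sets of Map2 and Map4 gave 1.08 and 0.57, the same sign as the brightest, while those of Map6 gave 0.22 and 0.36, the opposite sign.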

How the results depend on the processing

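No paired analysis was possible because each group had 1 array, with no replicates to pair. The KA differences matched on NAP are those already averaged. Of 493 recomputed values of single members, 479 moved by less than 0.25 on the log2 scale, the distance from the middle to either edge of the central 68% of NAP minus PBS. The other 14 came from averaging over probe sets (Map1b, Map2 and Map6) or from using the NAP array as the baseline (Map1a, Map2 and Stmn4). Members' medians kept their sign under every alternative, at -0.34 to -0.17 in KA minus PBS and -0.28 to -0.13 in KA+NAP minus NAP. The number of members low on both KA-injected arrays was 4 to 7: Mapt, Stmn1 and Stmn3 under every alternative, Map1b except with probe sets averaged, and Dcx except with the 75th percentile filter, which left it out. Map6 joined them with quantile normalization, and Map6 and Map1a with median centring. With probe sets averaged, 1 member was high on both. The lowest average KA effect then passed from Mapt to Stmn1, and the highest from Map4 to Map6.

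At least 1.5-fold lower, 1 member was counted in KA minus PBS with median centring, and 1 in KA+NAP minus NAP with median centring or a pseudocount of 1. The excess of the KA difference with NAP reached 1.5-fold in 0 members with a pseudocount of 50 and in 2 with probe sets averaged. In KA+NAP minus KA, 5 members were below 0 with quantile normalization and 5 with median centring. Of the other microtubule genes, the 75th percentile filter left 2 higher by 1.5-fold in KA minus PBS, 1 in KA+NAP minus NAP, 0 in KA+NAP minus KA, 2 in KA+NAP minus PBS and 0 in NAP minus PBS. Without a filter 6 were higher in KA+NAP minus NAP and 2 lower in NAP minus PBS, and with the NAP baseline 3 were higher in KA minus NAP. Median centring gave 8 lower in KA minus PBS, 10 in KA+NAP minus PBS and 2 in NAP minus PBS. A pseudocount of 50 gave 1 lower in KA+NAP minus KA, and 0 lower and 1 higher in NAP minus PBS, where quantile normalization also gave 0 lower. The share of all genes past 1.5-fold was not computed under the alternatives, so these counts cannot be read as particular to microtubule genes. The 75th percentile filter left 5385 of the 9489 genes. Median centring moved the median of all genes in KA+NAP minus PBS from 0.03 to -0.06. Beyond the construction of each alternative, the causes were not tested. Dim probe sets, such as those of Dcx and the third of Map1b and Map6, limit what can be read.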
